A study of Mus musculus with 8 samples.

Results

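miR-192, miR-194 and miR-215 are 3 of the 567 mouse microRNAs (miRNAs) on the array, taken as all non-control probes that the scanner files name mmu-miR-192, mmu-miR-194 or mmu-miR-215. The array holds no other form of them, such as a passenger strand. Their levels were measured in the livers of 4 obese, diabetic db/db mice and 4 db/+ mice, which served as controls. A db/db mouse carries 2 copies of the db mutation in the leptin receptor gene and a db/+ mouse carries 1, so both groups carry the allele. The labels place the db/db mice on C57BL/KsJ, and the age of these animals is not given in the sources used here. Each animal gave 1 array, hybridised with 100 ng of whole-liver RNA, with no pooling.

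miRNAs are short RNAs that guide silencing proteins to messenger RNAs, chosen mainly by the seed near the miRNA's 5′ end. miR-192 and miR-194 are abundant in epithelia of the gut, kidney and liver. Together with miR-215 they come from a pair of clusters that each join miR-194 to a miR-192-type miRNA. The stress-response factor p53 is known to activate these clusters. miR-192 is also known from studies of the diabetic kidney and, in blood, of fatty liver.

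The mature sequences show why miR-192 and miR-215 form 1 family and miR-194 another. They are from RefSeq (GRCm38.p6), in which all 3 members were found, are written 5′ to 3′, and have the seed (bases 2 to 8) in capitals.
miR-192: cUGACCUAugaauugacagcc
miR-215: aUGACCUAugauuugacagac
miR-194: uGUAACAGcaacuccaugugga
miR-192 and miR-215 share their seed, and no other of the 1679 mature mouse miRNAs in that table has it. They are identical at 18 of 21 bases and differ by C1A, A12U and C20A, counted from the 5′ end with the base of miR-192 first. The seed of miR-194 occurs in miR-194 alone.

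miR-194 is made from 2 hairpins, which are shown because they give the same mature miRNA, in capitals, from different flanking sequence.
Mir194-1: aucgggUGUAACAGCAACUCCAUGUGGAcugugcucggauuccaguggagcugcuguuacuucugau
Mir194-2: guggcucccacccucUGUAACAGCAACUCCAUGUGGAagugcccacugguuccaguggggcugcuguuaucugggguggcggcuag
Mir194-1 lies on chromosome 1, with 195 bases between it and the hairpin of miR-215. Both of those hairpins lie within Iars2, the gene of the mitochondrial isoleucyl-tRNA synthetase, on the opposite strand. Mir194-2 lies on chromosome 19, with 115 bases between it and the hairpin of miR-192, within no other RefSeq gene. The array measures the mature miR-194, so the contributions of the clusters cannot be told apart in its value.

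Each member was measured by 2 probes with 10 spots each. The probes of a miRNA match stretches that share their 3′ end and differ by 1 base in length. In the mm9 coordinates of the array files, the stretches of miR-192 lie on chromosome 19 at 6264859 to 6264877 (19 bases) and 6264860 to 6264877 (18 bases). Those of miR-194 lie on chromosome 1 at 187137210 to 187137225 (16 bases) and 187137211 to 187137225 (15 bases). Those of miR-215 lie on chromosome 1 at 187137492 to 187137509 (18 bases) and 187137493 to 187137509 (17 bases). The stretches under the longer probes of the related pair are shown with the bases at which they differ in capitals.
miR-192 longer probe: gaccuaugaAuugacagCc
miR-215 longer probe: accuaugaUuugacagAc
The relatives thus differ at 2 bases within the matched stretch. The stretches were read off the RefSeq sequences by their lengths, counted back from the 3′ end.

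The arrays differed in overall brightness, which bears on every value below. The brightness factor is an array's median signal over 89 miRNAs that every array detected, divided by the geometric mean of these medians. It was 5.63, 0.564, 1.58 and 0.210 on db/+ replicates 1 to 4. It ranged from 0.847 to 1.06 in db/db, and each signal was divided by it. All 8 arrays lay on 1 slide and were scanned together. The db/db arrays filled row 1 and the db/+ arrays row 2, and the effect of strain and that of the row cannot be told apart. As a check of the tissue, the hepatocyte miRNA miR-122 was well above background on every array. Its scaled signal on the log2 scale was 15.38 ± 0.70 in db/+ and 15.48 ± 0.06 in db/db (SD, n = 4 each).

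In the livers of the db/db mice neither miR-192 nor miR-194 changed past the test, and miR-215 was detected on 1 db/+ array and no db/db array, with no spot well above background. miR-192 was 1.11-fold and miR-194 1.17-fold higher in db/db on average. A miRNA was tested where some strain had it detected on each of its 4 arrays, which held for 127. Of these, 15.0% passed limma's moderated test at a Benjamini-Hochberg adjusted p of 0.05, 9.45% as higher and 5.51% as lower in db/db. Of the 2 members tested, 0 passed in limma and 0 had an unadjusted p under 0.05. SAM, the test named by the series, called 0 of them in a version written from its description.

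miR-192 had a scaled signal on the log2 scale of 12.13, 12.56, 12.22 and 12.69 on db/+ replicates 1 to 4. In db/db replicates 1 to 4 it was 12.50, 12.68, 12.48 and 12.54. The strains overlapped: the dim db/+ arrays, replicates 2 and 4, lay among or above the db/db values, and the bright db/+ arrays, replicates 1 and 3, lay below them all. The means were 12.40 ± 0.27 in db/+ and 12.55 ± 0.09 in db/db (SD, n = 4 each), a difference of 0.15 ± 0.16 (SE; limma adjusted p = 0.56). The 95% interval of the difference ran from -0.21 to 0.51, which is 0.862-fold to 1.43-fold. This difference was the median of all 127 tested miRNAs, with 63 above it and 63 below it. Without db/+ replicate 1, the brightest array, it was 0.059 (limma adjusted p = 0.862), and without db/+ replicate 3 it was 0.091 (limma adjusted p = 0.787).

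miR-194 had a scaled signal on the log2 scale of 10.18, 10.11, 10.35 and 10.03 on db/+ replicates 1 to 4. In db/db replicates 1 to 4 it was 10.36, 10.35, 10.47 and 10.39. Every db/db value lay above every db/+ value, but db/+ replicate 3 and db/db replicate 2 were nearly level. Strains that do not overlap were found for 22.8% of the tested miRNAs. The means were 10.17 ± 0.13 in db/+ and 10.39 ± 0.05 in db/db (SD, n = 4 each), a difference of 0.22 ± 0.13 (SE; limma adjusted p = 0.304). The 95% interval ran from -0.072 to 0.52, or from 0.951-fold to 1.43-fold, and 53 of the tested miRNAs had a larger difference. Without db/+ replicate 4, the dimmest array, the difference was 0.080 (limma adjusted p = 0.806). In whole-liver RNA, fewer cells of a type and less RNA per cell cannot be told apart.

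**Figure D1:**
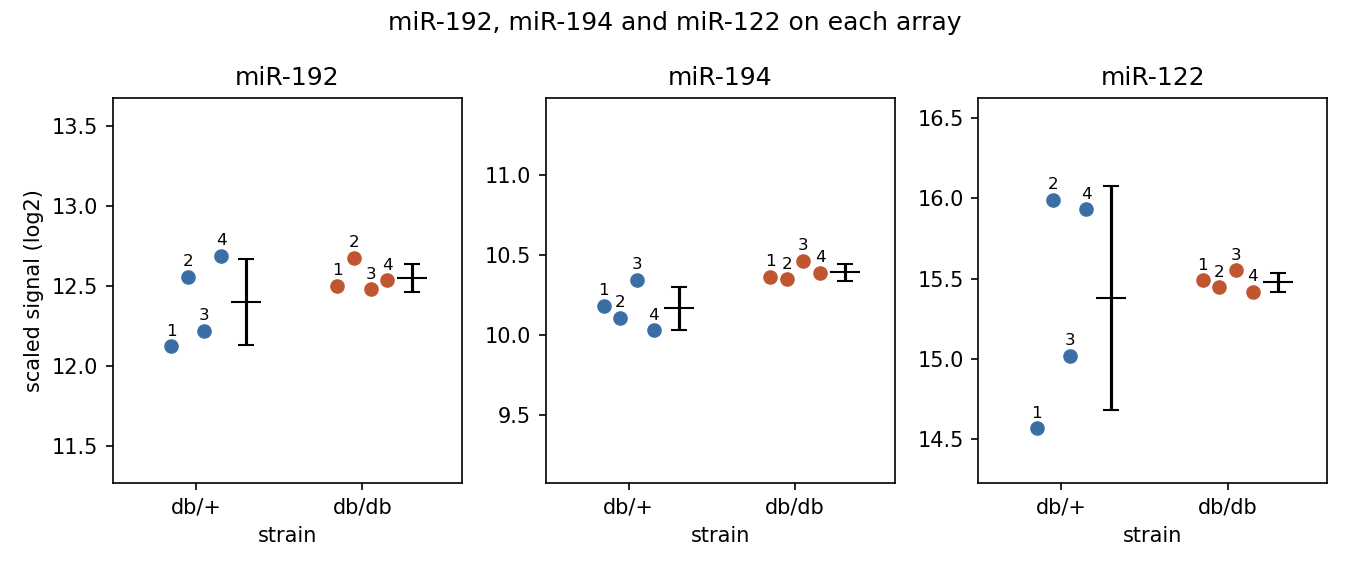
Scaled signal on the log2 scale of miR-192, miR-194 and the hepatocyte miRNA miR-122 in db/+ (blue) and db/db (orange) livers, each panel spanning the same number of log2 units. Points are arrays with their replicate number, and the bars give the mean ± SD over 4 arrays. In db/+, replicates 2 and 4 lie above replicates 1 and 3 for miR-192 and miR-122 and below them for miR-194, and the db/db points of all 3 lie close together.

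Both members had a smaller SD within each strain than the median tested miRNA. Many of the tested miRNAs had lower signals than the members, and the SD was not compared among miRNAs of like signal. In db/db the SD of miR-194 was 0.052 on the log2 scale, against a median SD of 0.18 over the tested miRNAs, and 3 of the 127 had a smaller one. For miR-192 it was 0.088, with 16 smaller. In db/+ the SD of miR-194 was 0.13, with 11 smaller, and that of miR-192 0.27, with 46 smaller, against a median of 0.34. The spots of a probe on 1 array varied with a median coefficient of variation of 3.38% for miR-192 and 3.82% for miR-194.

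Measured against miR-122 on the same array, in place of the array median, the differences between strains were smaller than the SD of the db/+ arrays. That SD holds the spread of miR-122 itself. Its scaled log2 signal was 14.57 and 15.02 on the bright db/+ replicates 1 and 3, and 15.99 and 15.93 on the dim replicates 2 and 4. The signal of miR-192 relative to miR-122, as a log2 difference, was -2.98 ± 0.45 in db/+ and -2.93 ± 0.13 in db/db (SD, n = 4 each; exact permutation p = 0.83, two-sided). For miR-194 it was -5.21 ± 0.80 and -5.08 ± 0.04 (exact permutation p = 0.657, two-sided), a difference larger than the SD of the db/db arrays. Probes bind with different strength, so the values of different miRNAs give no order of their abundance, and only the differences between strains are compared.

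**Figure D2:**
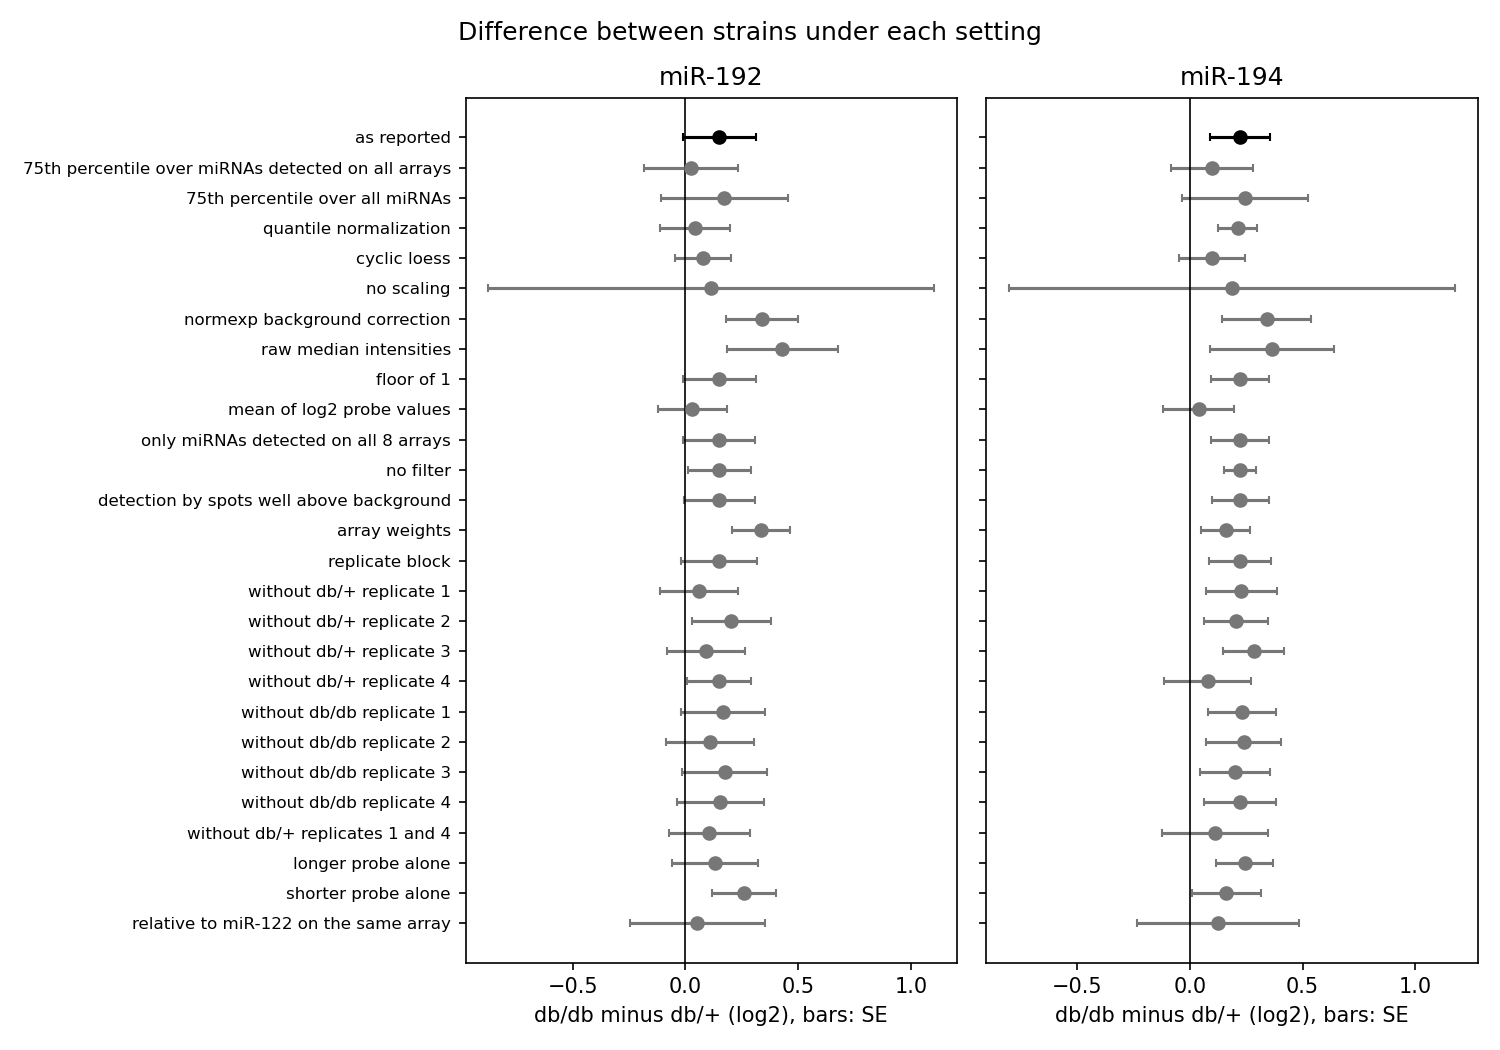
Difference in scaled signal between strains (db/db minus db/+, log2) for miR-192 and miR-194 as reported, in black, and under each alternative that refits a log2 signal, in grey, with bars for the SE. All points lie to the right of 0, from 0.024 to 0.43 for miR-192 and from 0.039 to 0.37 for miR-194, and no setting brought either past the test. Settings that change only the filter, the floor or the block keep the difference as reported.

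miR-192 and miR-194 are neighbours at the chromosome 19 cluster, and their ratio within an array does not depend on how that array is scaled. The log2 difference, miR-192 minus miR-194, was 1.94, 2.45, 1.88 and 2.66 on db/+ replicates 1 to 4. It was 2.14, 2.33, 2.02 and 2.15 on db/db replicates 1 to 4. The db/db values all lay inside the range of the db/+ values. The means were 2.23 ± 0.38 in db/+ and 2.16 ± 0.13 in db/db (SD, n = 4 each), which differed by -0.074 (exact permutation p = 0.771, two-sided, where 4 against 4 arrays allow no p below 0.0286). The direction of this small difference turned without db/+ replicate 4 (0.069). Of the 3 pairs of members only this 1 was computed, since miR-215 lay below the floor for low signals.

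That ratio fell with brightness across the arrays. Over the 8 arrays the log2 brightness factor and miR-192 minus miR-194 had a Pearson r of -0.828 (exact permutation p = 0.00809, adjusted p = 0.0323 over 4 relations computed). Spearman's rho was -0.762 (exact permutation p = 0.0368, adjusted p = 0.0735). Without db/+ replicates 1 and 4, the arrays farthest in brightness, r was -0.807. Within a strain there were 4 arrays, too few for a value, and the db/db arrays span little brightness. The dim db/+ replicates 2 and 4 were thus high for miR-192 and low for miR-194, and their part in the comparison of strains was not tested beyond leaving arrays out.

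The probes of miR-192 also disagreed with each other by array. The longer probe gave 2.89, 4.75, 2.43 and 4.61 times the signal of the shorter one on db/+ replicates 1 to 4, and 3.14 to 3.32 times in db/db. The higher ratios were again on the dim arrays. With log2 brightness this ratio, as log2, had a Pearson r of -0.756 (exact permutation p = 0.0293, adjusted p = 0.0586) and a Spearman rho of -0.929 (exact permutation p = 0.00223, adjusted p = 0.00893). Without db/+ replicates 1 and 4 its r was -0.984.

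For miR-194 the longer probe gave 3.35, 3.30, 2.75 and 3.38 times the shorter one on db/+ replicates 1 to 4 and 3.28 to 3.43 times in db/db. With log2 brightness that ratio had a Pearson r of -0.213 (exact permutation p = 0.385, adjusted p = 0.513) and a Spearman rho of -0.476 (exact permutation p = 0.243, adjusted p = 0.324). Without db/+ replicates 1 and 4 r was -0.649. Read by the longer probe alone, the difference between strains was 0.13 for miR-192 and 0.24 for miR-194. The shorter probe alone gave 0.26 and 0.16, and none of these passed (limma adjusted p = 0.714, 0.249, 0.264 and 0.49 in that order).

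**Figure D3:**
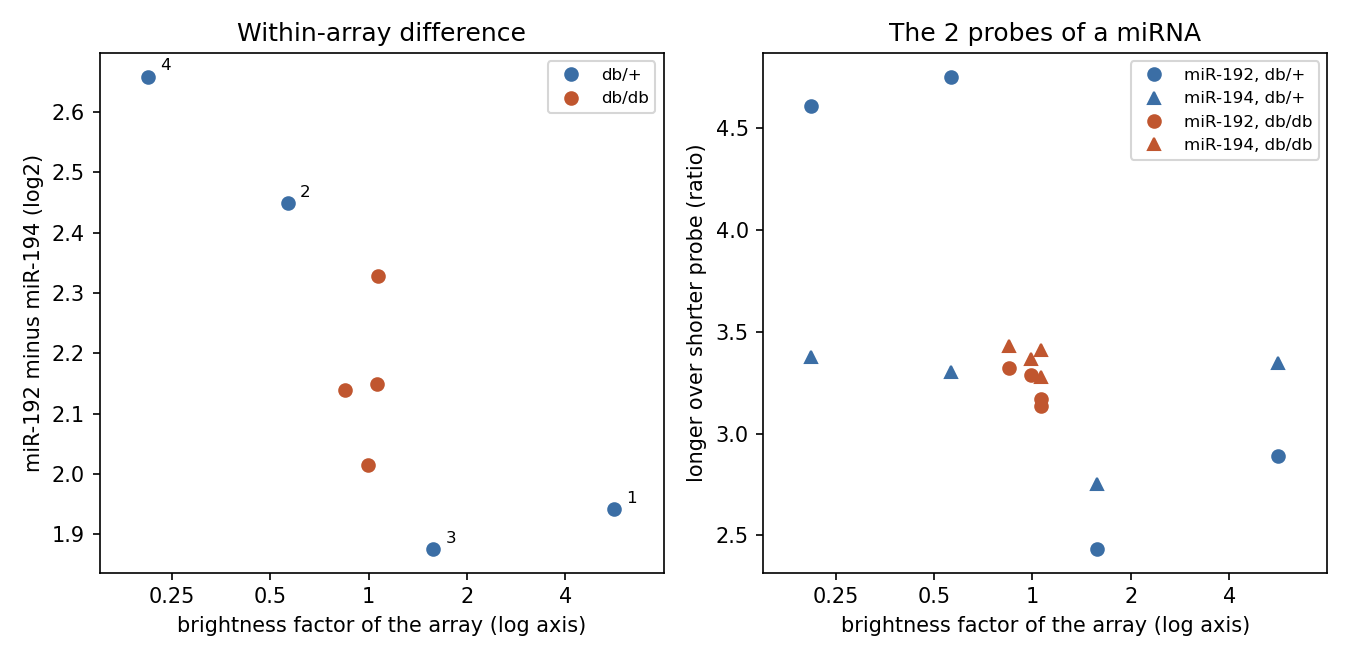
Left, miR-192 minus miR-194 within an array (log2) against the brightness factor of the array on a log axis, with the db/+ replicates numbered. Right, ratio of the longer to the shorter probe's signal for miR-192 (circles) and miR-194 (triangles) against the same axis. Points are single arrays, db/+ in blue and db/db in orange. Both miR-192 measures are highest on the dim db/+ arrays 2 and 4, while the miR-194 ratio stays between 2.75 and 3.43.

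No relation between miR-192 and miR-194 was found across the 8 arrays. Their scaled log2 signals had a Pearson r of -0.125 (exact permutation p = 0.776, adjusted p = 0.776) and a Spearman rho of -0.31 (exact permutation p = 0.462, adjusted p = 0.462). Without db/+ replicates 1 and 3, the arrays farthest from the median of miR-192, r was -0.607. The miRNAs most like miR-192 over the 8 arrays were let-7b (r = 0.955), miR-151-5p (r = 0.94) and miR-92a (r = 0.922), none of which passed the test between strains. Those most like miR-194 were miR-203 (r = 0.956), miR-31* (r = 0.916) and miR-200b (r = 0.91), all of which were higher in db/db past the test. These neighbours were picked as the highest of 126 values each, and all arrays share the scaling, so they are a description. Each r was taken over both strains together, so differences between strains enter it, and no r within a strain is given.

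miR-215, the seed partner of miR-192, was near background. Of its 160 spots on 8 arrays 0 were well above background, against all 160 for miR-192 and all 160 for miR-194. The detection flag was set for it on 1 array, db/+ replicate 1, the brightest. There its longer probe had a processed signal of 19.97 ± 5.56 and its shorter probe 4.11 ± 4.95 (SD over 10 spots each). On the other db/+ arrays the longer probe had -2.54, 4.09 and 2.30 for replicates 2, 3 and 4. On db/db replicates 1 to 4 it had 3.71, 1.30, 0.746 and 0.0993. After scaling, the mean of the probes was 2.14 on db/+ replicate 1, below the floor of 4.59 set for low signals, as on all other arrays. No fold change is given, since both strains lay below that floor.

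The related miR-192 was bright on the same arrays. On db/+ replicate 1 the longer miR-192 probe had a processed signal of 37385, and the signal of the longer miR-215 probe was 0.0534% of that. On the other db/+ arrays the percentage was -0.0452, 0.0384 and 0.101 for replicates 2, 3 and 4, and in db/db it ran from 0.00104 to 0.0491. On the arrays other than db/+ replicate 1 miR-215 was not detected, so those percentages have no order. Binding of miR-192 to the miR-215 probes was not tested.

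**Figure D4:**
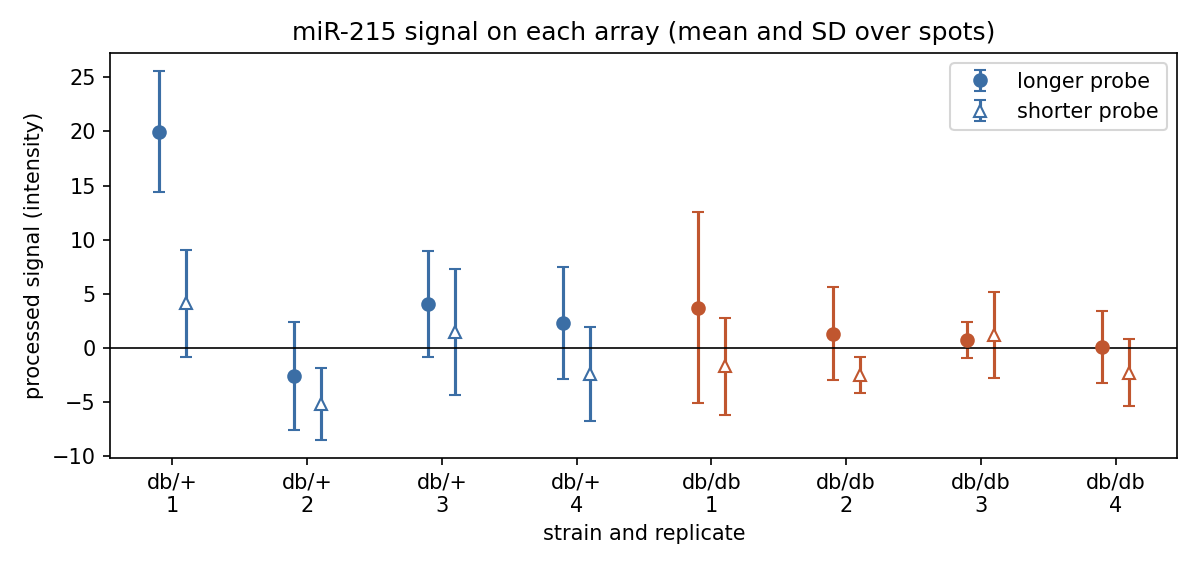
Processed signal of the longer (filled circles) and shorter (open triangles) miR-215 probe on each array, db/+ in blue and db/db in orange, as mean and SD over the spots kept. All means lie between -5.14 and 4.11 except that of the longer probe on db/+ replicate 1, at 19.97.

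In the authors' deposited table of normalized log scores, miR-192 and miR-194 are listed and miR-215 is not among its 139 miRNAs. The miR-192 scores of the authors' deposited table were 2.80 to 2.92 for db/+ mice and 2.88 to 2.98 for db/db mice. The miR-194 scores of the authors' deposited table were 2.15 to 2.49 for db/+ mice and 2.37 to 2.45 for db/db mice. The strains overlapped for both, and limma on these scores gave adjusted p = 0.554 and 0.615. The base of that logarithm is not given in the sources used here, so no fold is drawn from it.

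Of 9 listed miRNAs linked to p53, 5 were tested and 3 were detected on no array. Among the 5 tested, 2 rose and 0 fell, where 9.45% of all tested miRNAs passed as higher and 5.51% as lower. Those that rose were miR-34a, a direct target of p53 (log2 difference 2.54 ± 0.26, SE; limma adjusted p = 1.7e-04), and miR-107 (0.74 ± 0.17, limma adjusted p = 0.0164). The other 3 of that list, miR-143, miR-15a and miR-16, had 0.33, -0.30 and 0.011 and are named after their values were seen. The median of that list was 0.33, against 0.15 over all tested miRNAs. miR-192 and miR-194 were not counted in it. The list was chosen with earlier results of these data known, and p53 itself was not measured.

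Markers of the cell types in liver were read beside the members. Each sum below covers all listed miRNAs on the array, tested or not. It adds linear scaled signals, with negative values counted as 0 and no other floor. Probes bind with different strength, so a sum is no measure of a cell type's amount. The summed scaled signal of the 6 hepatocyte miRNAs was 29838 to 73562 in db/+ and 51163 to 55726 in db/db, and 0 of these 6 passed limma's test or were called by SAM. Most of this sum was miR-122 itself, at 24291 to 65180 in db/+ and 43785 to 48032 in db/db. At an unadjusted p under 0.05 there was 1, miR-101a (-0.55 ± 0.23, adjusted p = 0.16). The others went both ways: miR-802 (0.52), miR-22 (0.42), miR-122 (0.098), miR-148a (-0.020) and miR-101b (-0.21). The median of this list was 0.039. For 7 miRNAs of bile duct and other epithelium, which can also express this family, the sum was 87.6 to 115 in db/+ and 142 to 190 in db/db. Of the 3 tested, 2 rose, miR-203 (0.94) and miR-200b (0.81), where 9.45% of all tested miRNAs passed as higher. miR-200a had 0.64 (limma adjusted p = 0.228). The sum holds these same miRNAs, and their signals were low. In db/+ the means of miR-203, miR-200b and miR-200a were 5.22, 4.56 and 3.98 on the log2 scale, where the floor was 2.20. Of the 7, 1 was detected on no array. The leukocyte sum was 514 to 761 in db/+ and 321 to 420 in db/db. Of 4 tested from a list of 7, 2 fell, miR-142-3p (-1.10) and miR-223 (-0.74), where 5.51% of all tested miRNAs passed as lower. miR-342-3p (-0.54, limma adjusted p = 0.321) and miR-146a (-0.044, limma adjusted p = 0.909) did not pass.

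The stellate and smooth muscle sum was 128 to 176 in db/+ and 206 to 276 in db/db. Of the 6 listed, 5 were on the array and 4 were tested. Only miR-31 rose (1.09), where 9.45% of all tested miRNAs passed as higher. It had the highest mean signal of the 4 in both strains, so the sum leans on it. The others, miR-214 (0.64), miR-143 (0.33) and miR-199a-5p (0.084), did not pass. The endothelial sum was 1488 to 2172 in db/+ and 1676 to 2085 in db/db, with 0 of 2 passing, and miR-126-5p, the one with the smaller p, had 0.28 (adjusted p = 0.531). The erythroid sum was 819 to 1996 and 1247 to 2236, and its 1 tested miRNA, miR-451, had 0.45 (adjusted p = 0.322). The pancreatic sum was 24.98 to 44.7 and 38.5 to 47.6, with 4 of 5 detected on no array, and miR-7a had 0.36 (adjusted p = 0.256). The endothelial, erythroid and pancreatic lists also had 0 calls by SAM and 0 at an unadjusted p under 0.05. The part of these other cell types in the values of miR-192 and miR-194 was not tested.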

How the data were processed

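The authors scanned and quantified the arrays with Agilent Feature Extraction, version 9.5.3.1 as recorded per the file headers. Its processed spot intensity has the background subtracted and carries no scaling across arrays, per the file headers. Marks of 0 or 1 for detection, background, saturation and outliers are other columns, deposited beside the intensity. The authors deposited, too, 1 score for each of 139 miRNAs, median normalized and log transformed per the series text, and raw median spot intensity.

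Control and outlier spots were left out, and no miRNA spot was saturated. Spots, then probes, were averaged on the linear scale. Signals were divided by the brightness factor, raised to a floor of 4.59 where lower (each array's lowest detected scaled signal, then the median of the 8) and put on the log2 scale, where the deposited intensity was linear. limma 3.58.1 in R 4.3.3 tested 127 miRNAs, with strain as the only term, two-sided, and Benjamini-Hochberg adjustment. Single values were compared with exact permutation tests. SAM was run in a version written from its description, and its counts differ from those of other implementations. The procedure was tested on simulated data that gave both strains the spread of the db/db arrays and no differences in brightness. The wider spread of the db/+ arrays was thus not covered. The number of arrays limits the precision.

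The members and marker lists were chosen with earlier results of these data known. Named were the members, miR-122, the 3 miRNAs most like each member, and of each list those past the threshold or else the smallest p. Replicate numbers 3 and 4 come from the titles of both strains. Their arrays' deviations from the strain means correlated at 0.036 and 0.31 over the tested miRNAs, so the numbers were not taken as pairs. The result of 1 further list is not reported here.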

Additional observations from a re-analysis of the deposited data

Results flagged for a closer look

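Of 18 sets of 4 arrays checked, 1 held an array far from the rest, and chance marks about 1 in 20. The ratio of the longer to the shorter miR-194 probe in db/+ was 2.75 on replicate 3 and 3.30 to 3.38 on the others. That gap took up 0.878 of the range of the 4 arrays. The same array had the lowest ratio for miR-192, 2.43.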

How the results depend on the processing

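Over 28 alternatives each, the differences of miR-192 and miR-194 kept their positive sign and stayed short of the threshold (limma adjusted p from 0.0656, for miR-192 with array weights, to 0.993). SAM, the test the series names, called neither. As reported, 84 of the 127 tested miRNAs had a positive difference. Alternatives that changed only the filter, the floor, the block or the test left the differences of miR-192 and miR-194 as they were. Their sign could not change there. Sizes were not stable: the 75th percentile over detected miRNAs gave 0.024 and 0.098, and raw median intensities 0.43 and 0.37. Leaving out 1 array at a time gave 0.059 (without db/+ replicate 1) to 0.20 for miR-192 and 0.080 to 0.28 for miR-194. Relative to miR-122, a setting chosen after the data were seen, they were 0.052 and 0.13. miR-192 minus miR-194 turned positive with raw median intensities (0.064), without db/+ replicate 4 (0.069) and with the shorter probes alone (0.096, chosen after the data were seen). It ranged from -0.19 to 0.069 with 1 array left out, and the cause was not tested.

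The count of 19 miRNAs past the threshold was 0 without scaling (1 at an unadjusted p under 0.05, 4 by SAM), 2 with normexp, 1 with raw median intensities, 3 with the deposited scores and 4 with no filter. It was 42 with array weights, 9 without db/+ replicates 1 and 4, and 2 relative to miR-122. With 1 array left out it was 11 to 20, lowest without db/db replicates 2 and 3 (11 and 12). It split into 12 higher and 7 lower, against 6 and 8 with the 75th percentile over miRNAs every array detected, 10 and 4 with that over all miRNAs, 9 and 8 with quantile normalization and 10 and 11 with cyclic loess. With the replicate block, numbers 3 and 4 as levels and the other arrays as 1 level, miR-192 and miR-194 had 0.15 and 0.22 (limma adjusted p = 0.569 and 0.309), the log2 ratio -0.074, and 18 miRNAs passed. miR-215 was not tested, being below the floor on all 8 arrays.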
